A study of Mus musculus with 6 samples.

Results

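Fatty acid oxidation, the breakdown of fatty acids in mitochondria and peroxisomes, was described here through 36 named genes in macrophages of epididymal fat. A gene was represented by the array row whose annotation gives its symbol, rows that also name another gene included, and by the row with the highest mean where there were several. Of the 36 genes, 35 had a row, out of 31722 rows tested in all (1 per gene). Acsl1 was not analysed here. The 35 genes were 19 of mitochondria, 9 of peroxisomes and 7 that act before oxidation, in the cytosol or as regulators. Genes entered by name, and the choice between rows used the mean over all 6 arrays, not the difference between diets. The list of names itself was chosen with earlier results of these data known.

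The study compared obese with lean male C57BL/6J mice at 22 weeks of age. HFD mice ate a high-fat diet with 60% fat (Research Diets D12492) and NCD mice a normal chow diet (Envigo Teklad 8904), each for 16 weeks from 6 weeks of age. Cells of the stromal vascular fraction, freed from the fat with collagenase, were labelled with an antibody to F4/80, the macrophage surface protein encoded by Adgre1, and selected with magnetic beads. Each diet had 3 pools, of 10 mice each for HFD and 20 mice each for NCD, and 100 ng of total RNA per pool went to 1 Affymetrix array, named HFD1 to HFD3 and NCD1 to NCD3 here. The spread between single mice was therefore not measured.

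Fatty acids are first joined to coenzyme A. To enter mitochondria the acyl group is moved onto carnitine and back, and then shortened in repeated rounds of dehydrogenation, hydration, a second dehydrogenation and thiolysis. Peroxisomes run an analogous cycle on very long and branched chains, with an oxidase that makes hydrogen peroxide in place of the first dehydrogenase. In obese fat, macrophages load lipid and can store, export or oxidise it, and PPAR transcription factors, which bind fatty acids, control many genes of both cycles.

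Values are log2 expression as deposited, and a change is log2 HFD minus NCD with its standard error from limma. Of all genes tested, 2451 (7.73%) passed an adjusted p of 0.05 (Benjamini-Hochberg over all rows), 4.9% higher and 2.83% lower in HFD. The count fell to 408 without HFD2 and reached 4949 without NCD1. The mean level of 8 macrophage markers was 15.10 to 15.28 on HFD arrays and 14.36 to 15.10 on NCD arrays. Among the macrophage markers Cd68 (2.30-fold, adjusted p = 0.0268) and Fcgr1 (2.69-fold, adjusted p = 0.0152) rose and Mertk fell by 0.49 (adjusted p = 0.0383) in limma's test. Adgre1, which encodes the protein used for selection, was 1.88-fold higher without overlap but was not called (adjusted p = 0.0930). Marker RNA of other cell types differed as well. Smooth muscle and pericyte markers fell in 6 of 8 genes, by up to 27.1-fold (Myl9), at a summed level of 12.07 to 13.57 on HFD and 15.51 to 17.47 on NCD arrays. Mesothelial markers fell in 8 of 8 genes, 5 of them below background on average, with summed levels of 8.77 to 8.95 on HFD and 11.04 to 11.97 on NCD arrays. Mast cell markers rose in 4 of 6 genes, with summed levels of 9.67 to 10.60 on HFD and 8.92 to 8.97 on NCD arrays. Fibroblast and progenitor markers rose in 5 of 8 genes, while their summed level overlapped, at 13.03 to 13.85 on HFD and 13.0 to 13.92 on NCD arrays. The others of that list had negative changes and were not called by limma. Dcn (-0.88, adjusted p = 0.126) and Dpp4 (-1.42, adjusted p = 0.112) were lower in HFD without overlap, and Pi16, below background, changed by -0.10. The part of these lists in the changes of oxidation genes was not tested.

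The endothelial, neutrophil and B cell lists overlapped between diets, with 0 genes called by limma in each (8 of 10 endothelial, 0 of 6 neutrophil and 0 of 5 B cell genes had an unadjusted p under 0.05). The summed level of 10 of 10 endothelial markers was 15.40 to 16.75 on HFD and 16.17 to 18.39 on NCD arrays, all of them above background. The summed level of 6 neutrophil markers, 1 of them below background, was 14.45 on HFD3, at most 9.54 on the other HFD arrays and 11.16 to 12.05 on NCD arrays, and that of 5 of 6 B cell markers was 11.25 to 12.08 on HFD arrays, 13.61 on NCD1 and at most 11.84 on the other NCD arrays. In such bulk samples, fewer cells of a type and less RNA per cell cannot be told apart.

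The oxidation genes as a group lay slightly higher in macrophages of HFD mice. Because the list was chosen with earlier results of these data known, the shares below are descriptive only. By limma's test 7 of the 35 genes rose (20.0%), against 4.9% of all genes tested and 8.61% of the 16649 genes above the background level of 6.23. No gene fell by this test: 0 of 35 were called lower, against 2.83% of all genes and 4.49% of those above background, although Cpt1b and Ppard were lower at an unadjusted p under 0.05. The median change was 0.27 over the 35 genes and 0.01 over all genes. All HFD arrays lay above all NCD arrays in 18 of the 35 genes (51.4%), against 17.5% of all genes and 26.3% of genes above background. The 7 genes that rose were Hadha, Hadhb and Acot2 of mitochondria, Hsd17b4, Decr2 and Abcd3 of peroxisomes, and Acsl3. Fold sizes were small, between 1.46 and 2.09. The proliferating-cell markers rose in 7 of 7 measured genes, with a median of 2.19, at a summed level of 14.20 to 14.89 on HFD and 11.41 to 12.86 on NCD arrays; their part in the changes of oxidation genes was not tested.

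**Figure D1:**
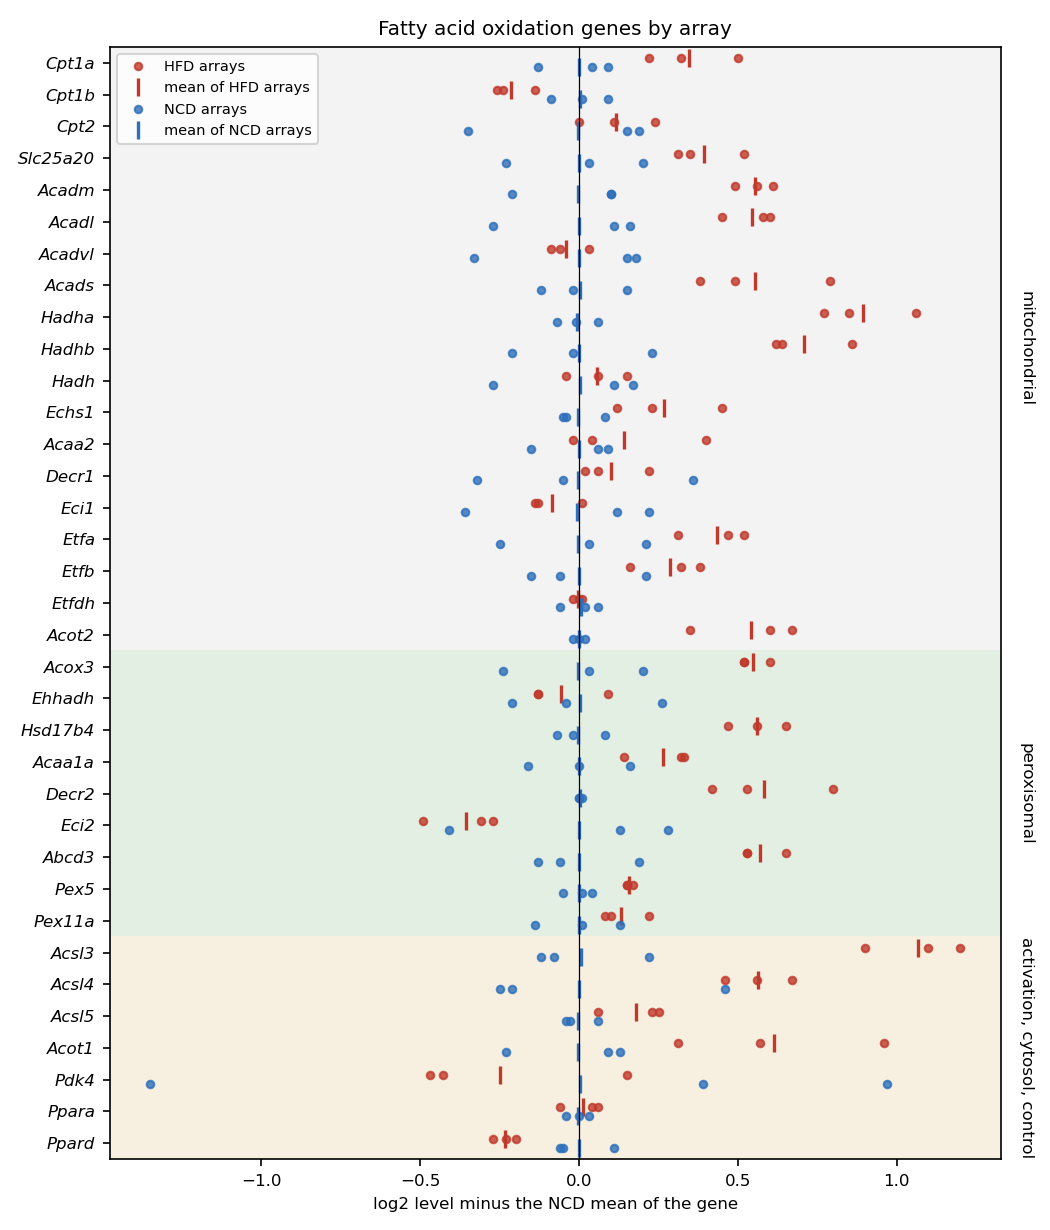
Each row is 1 of 35 genes and each point 1 array (HFD red, NCD blue, 3 each), as log2 level minus the NCD mean of that gene; ticks are the means and shading marks mitochondrial, peroxisomal and other genes. Hadha and Acsl3 show the widest gaps between diets, and Pdk4 the widest spread among NCD arrays.

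The carnitine shuttle moves acyl groups across the mitochondrial membranes, and 0 of its 4 genes passed limma's adjusted test (3 had an unadjusted p under 0.05). Cpt1a, the outer-membrane transferase that sets the pace of entry, measured 14.14, 14.24 and 14.42 on HFD arrays and 13.96, 14.01 and 13.79 on NCD arrays. The groups did not overlap, but the change of 0.35 ± 0.12 was not called (adjusted p = 0.143). Slc25a20, the inner-membrane carrier that exchanges acylcarnitine for carnitine, had 11.10, 11.14 and 11.31 in HFD against 10.56, 10.82 and 10.99 in NCD (0.39 ± 0.15, adjusted p = 0.161). Cpt1b, the muscle-type transferase, ran the other way at 6.85, 6.73 and 6.75 in HFD and 6.90, 7.08 and 7.0 in NCD. Its levels were near the background of 6.23, and the change of -0.22 ± 0.09 was not called (adjusted p = 0.194). Cpt2, which returns the acyl group to coenzyme A inside, was at 9.06 to 9.30 in HFD and 8.71 to 9.25 in NCD (0.12 ± 0.17), with NCD1 the lowest and the other NCD arrays within the HFD range.

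The acyl-CoA dehydrogenases take the first step of each round and differ in the chain length they accept. Acadm, the medium-chain enzyme whose loss causes the commonest human oxidation defect, had 12.02, 12.09 and 12.14 in HFD against 11.63, 11.32 and 11.63 in NCD. Its change of 0.56 ± 0.13 missed the threshold narrowly (adjusted p = 0.0502). Acadl, the long-chain enzyme, measured 13.58, 13.71 and 13.73 in HFD and 13.29, 12.86 and 13.24 in NCD (0.54 ± 0.14, adjusted p = 0.0733). Acads, for short chains, had 8.44, 8.55 and 8.85 in HFD and 8.04, 8.21 and 7.94 in NCD (0.55 ± 0.14, adjusted p = 0.0666). In these 3 genes every HFD array was above every NCD array, as in 17.5% of all genes and 26.3% of those above background. None of the 3 was called. Without NCD1 Acadm and Acadl were called by limma (adjusted p = 0.0317 and 0.0388), in a fit that called 4949 of 31722 genes. Acadvl, for very long chains, did not share the pattern: 9.70, 9.67 and 9.79 in HFD lay inside the NCD values of 9.43, 9.94 and 9.91. Its change was -0.04 ± 0.16, with a 95% interval of -0.43 to 0.34.

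Hadha and Hadhb, the subunits of the mitochondrial trifunctional protein, both rose. This complex of the inner membrane carries out hydration, the second dehydrogenation and thiolysis of long chains. Hadha, which holds the hydratase and dehydrogenase, measured 13.20, 13.28 and 13.49 in HFD against 12.36, 12.49 and 12.42 in NCD. The gap between the lowest HFD and the highest NCD array exceeded the range within either diet. Hadha was 1.87-fold higher (0.90 ± 0.12, adjusted p = 0.0112), and its change was 0.82 to 0.96 without each array in turn. That call was lost without HFD2 or HFD3, where the adjusted p was at most 0.0654. Hadhb, the thiolase subunit, had 13.04, 13.06 and 13.28 in HFD and 12.21, 12.40 and 12.65 in NCD. It was 1.63-fold higher (0.71 ± 0.15, adjusted p = 0.0393). The NCD arrays were more spread than for Hadha, and the change was 0.60 to 0.82 without each array in turn. The Hadhb call held without NCD1 (adjusted p = 0.0355) or NCD3 (adjusted p = 0.0312) and was lost without any other array, with an adjusted p of up to 0.162.

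These subunit genes lie head to head on mouse chromosome 5, and the start sites of Hadha on the minus strand and Hadhb on the plus strand are 273 bases apart in RefSeq (GRCm38.p6). The 250 bases before the Hadha start, chr5:30154981-30155230 on the minus strand, are shown because both genes rose and share them. Capitals mark the 228 bases that also lie within 250 bases before the Hadhb start.
Hadha: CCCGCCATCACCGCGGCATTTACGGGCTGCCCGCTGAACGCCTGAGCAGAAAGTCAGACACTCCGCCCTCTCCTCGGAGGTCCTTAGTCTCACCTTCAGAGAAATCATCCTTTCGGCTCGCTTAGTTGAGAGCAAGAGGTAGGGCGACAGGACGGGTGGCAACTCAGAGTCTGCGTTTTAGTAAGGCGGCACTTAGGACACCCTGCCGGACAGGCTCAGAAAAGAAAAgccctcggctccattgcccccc
The interval of Hadha held no match to either motif searched. These were the direct repeat bound by PPAR-RXR (AGGTCA, any 1 base, AGGTCA) with up to 2 mismatches and the NRF1 motif (GCGCA directly before TGCGC) with up to 1, on either strand; no window of these genes held both. RefSeq windows of 250 bases before the start were available for 32 of the 36 genes. The PPAR-RXR repeat matched in 2 of these 32 (6.2%), against 3.72% of 27025 genes with a window, and the NRF1 motif in 5 of 32 (15.6%), against 5.89%. The matches to the repeat lay before Echs1 and Etfa, neither of which was called. Among the genes that rose, the only match to either motif in the windows searched was the NRF1 match before Abcd3. Those windows are shown with the match in capitals: Echs1 at chr7:140116422-140116671, Etfa at chr9:55512244-55512493 and Abcd3 at chr3:121815303-121815552, all on the minus strand.
Echs1: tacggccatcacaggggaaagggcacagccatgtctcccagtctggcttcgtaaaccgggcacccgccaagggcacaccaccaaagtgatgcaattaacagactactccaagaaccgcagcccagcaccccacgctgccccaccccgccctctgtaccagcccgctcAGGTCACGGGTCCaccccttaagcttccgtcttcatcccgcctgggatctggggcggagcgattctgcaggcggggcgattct
Etfa: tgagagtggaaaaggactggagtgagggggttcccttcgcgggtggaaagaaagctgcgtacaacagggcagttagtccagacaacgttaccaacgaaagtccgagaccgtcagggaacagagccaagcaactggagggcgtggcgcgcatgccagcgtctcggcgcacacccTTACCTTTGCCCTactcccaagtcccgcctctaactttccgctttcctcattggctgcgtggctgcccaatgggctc
Abcd3: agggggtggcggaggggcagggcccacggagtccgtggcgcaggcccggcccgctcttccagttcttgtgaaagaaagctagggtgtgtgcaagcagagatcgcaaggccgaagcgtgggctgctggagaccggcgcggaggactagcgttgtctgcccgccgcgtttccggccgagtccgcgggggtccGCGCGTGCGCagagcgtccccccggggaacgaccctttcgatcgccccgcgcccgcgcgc
A match describes letters only; binding was not measured.

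The single-function enzymes of the later steps, Echs1, Acaa2 and Hadh, had smaller changes than Hadha and Hadhb and were not called by limma. This difference between genes was not tested. Echs1, the short-chain hydratase, had 9.50, 9.61 and 9.83 in HFD against 9.33, 9.46 and 9.34 in NCD (0.27 ± 0.12, adjusted p = 0.250). Acaa2, the mitochondrial thiolase, was at 11.91 to 12.33 in HFD and 11.78 to 12.02 in NCD, and Hadh, the hydroxyacyl-CoA dehydrogenase for medium and short chains, at 10.85 to 11.04 in HFD and 10.62 to 11.06 in NCD. The diets overlapped in both of the last genes, at changes of 0.14 ± 0.15 and 0.05 ± 0.15. The enzymes that prepare unsaturated chains overlapped as well. Decr1, the mitochondrial dienoyl-CoA reductase, changed by 0.10 ± 0.19 and Eci1, the enoyl-CoA isomerase, by -0.08 ± 0.17, with NCD arrays from 10.51 to 11.19 for Decr1 and from 8.18 to 8.76 for Eci1.

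Electrons leave the first step through the electron transfer flavoprotein, made of Etfa and Etfb, to its membrane dehydrogenase, Etfdh. Etfa had 12.21, 12.37 and 12.42 in HFD and 12.11, 11.65 and 11.93 in NCD (0.44 ± 0.15, adjusted p = 0.134), without overlap. Etfb had 10.26, 10.42 and 10.48 in HFD and 9.95, 10.31 and 10.04 in NCD (0.28 ± 0.14, adjusted p = 0.269), with NCD2 above HFD1; its row also names the microRNA gene Mir7051. Etfdh was flat, at 10.31 to 10.34 in HFD and 10.27 to 10.39 in NCD. Its change was -0.01 with a 95% interval of -0.24 to 0.23.

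Thioesterases release free fatty acid from acyl-CoA. Acot2, the mitochondrial form, rose: it measured 10.72, 11.04 and 10.97 in HFD against 10.37, 10.39 and 10.35 in NCD, 1.46-fold higher (0.54 ± 0.12, adjusted p = 0.0462). The NCD arrays were tightly grouped (SD 0.02) and all HFD arrays stood clear of them. The Acot2 call was kept only without NCD1 among the fits without 1 array (adjusted p 0.0436 to 0.193). Acot1, its cytosolic neighbour and close copy, had 6.66, 6.92 and 7.31 in HFD and 6.44, 6.48 and 6.12 in NCD (0.61 ± 0.18, adjusted p = 0.0995). Its NCD levels were near the background of 6.23, and signal shared between the copies was not tested.

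In peroxisomes 3 of 9 genes rose by limma (33.3%), against 4.9% of all genes and 8.61% of those above background: Hsd17b4, Decr2 and Abcd3. Hsd17b4, the D-bifunctional protein that carries out the middle steps of the cycle, measured 12.94, 13.03 and 13.12 in HFD against 12.55, 12.40 and 12.45 in NCD. It was 1.48-fold higher (0.56 ± 0.11, adjusted p = 0.0307). Decr2, the peroxisomal dienoyl-CoA reductase, had 9.66, 9.77 and 10.04 in HFD and 9.24, 9.24 and 9.25 in NCD, 1.49-fold higher (0.58 ± 0.13, adjusted p = 0.0437). Abcd3, a membrane transporter that brings acyl-CoA into the peroxisome, had 11.32, 11.32 and 11.44 in HFD and 10.73, 10.66 and 10.98 in NCD, 1.48-fold higher (0.57 ± 0.13, adjusted p = 0.0444). In each of the 3, all HFD arrays lay above all NCD arrays, as in 17.5% of all genes and 26.3% of those above background. Hsd17b4 and Decr2 kept their call only without NCD1 and Abcd3 only without NCD1 or NCD3; the adjusted p without 1 array reached 0.144, 0.148 and 0.180 for Hsd17b4, Decr2 and Abcd3, at changes of 0.47 to 0.66.

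The other peroxisomal genes were not called, and they did not all lean the same way. Acox3, an oxidase of branched chains, had 11.11, 11.19 and 11.11 in HFD and 10.79, 10.62 and 10.35 in NCD (0.55 ± 0.14, adjusted p = 0.0653). Acaa1a, the peroxisomal thiolase, had 8.10, 8.28 and 8.29 in HFD and 7.80, 8.12 and 7.96 in NCD (0.26 ± 0.12, adjusted p = 0.241); Acaa1b is its close copy and shared signal was not tested. Ehhadh, the L-bifunctional enzyme and a classical PPAR-alpha target in liver, was at 6.85 to 7.07 in HFD and 6.77 to 7.24 in NCD, near background (-0.06 ± 0.14). The change of Ehhadh therefore differed in sign from that of Hsd17b4, which does the same middle steps on the other stereoisomer; this difference between genes was not tested. Eci2, an isomerase found in peroxisomes and mitochondria, had 10.17, 9.99 and 10.21 in HFD and 10.07, 10.61 and 10.76 in NCD (-0.36 ± 0.19, adjusted p = 0.323). Without NCD1 it was called lower, at -0.57 (adjusted p = 0.0293). Pex5, the import receptor for matrix enzymes, had 8.11, 8.09 and 8.09 in HFD and 7.95, 7.98 and 7.89 in NCD (0.16 ± 0.08, adjusted p = 0.318), and Pex11a, a factor of peroxisome division, changed by 0.13 ± 0.10.

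**Figure D2:**
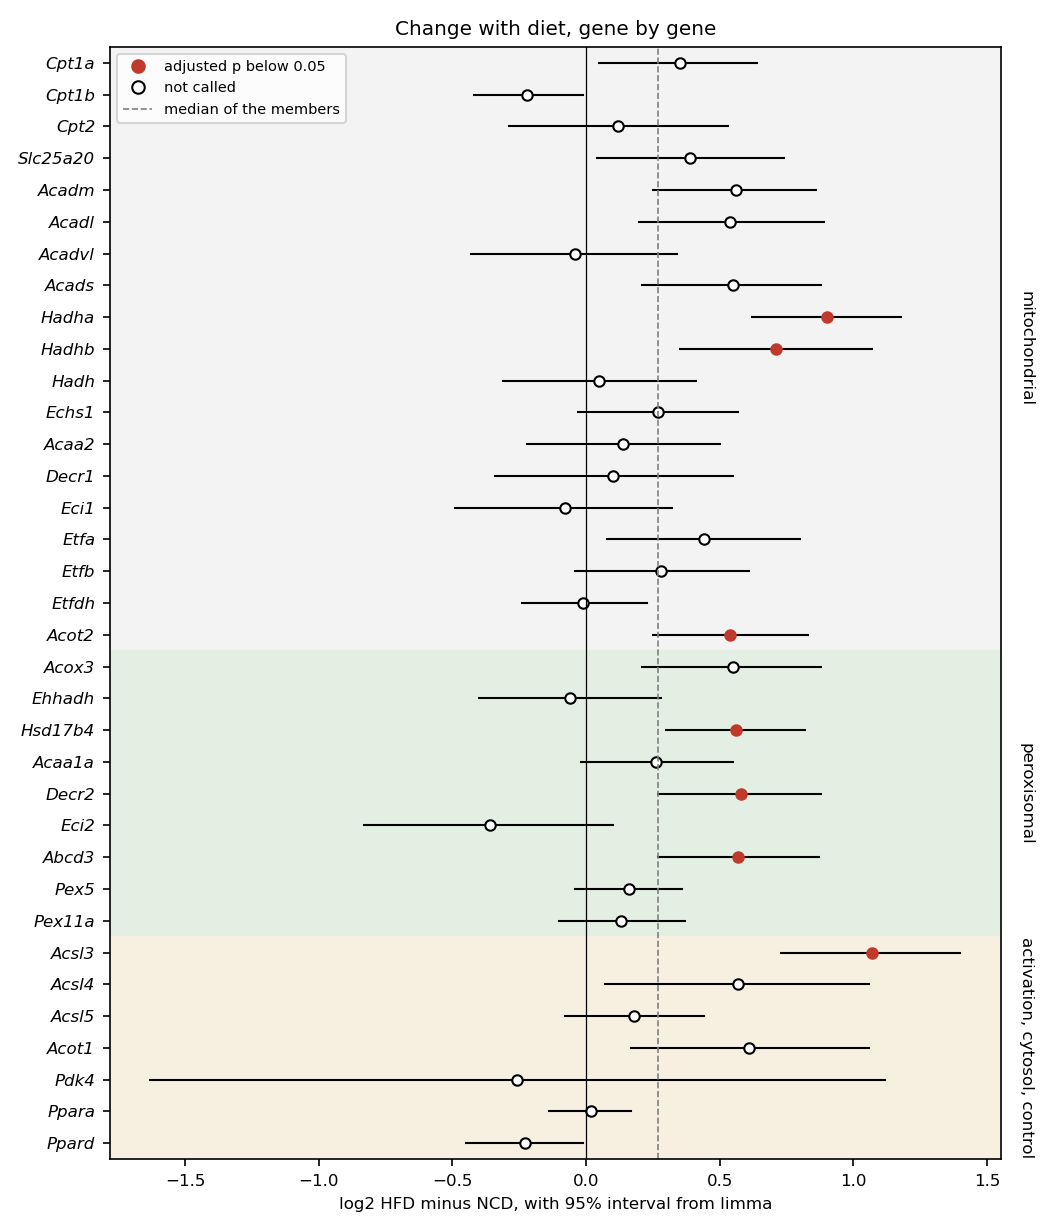
Points are the change of each gene on the log2 scale (HFD minus NCD) and lines its 95% interval from limma with 3 arrays per diet; filled points passed an adjusted p of 0.05 over all genes and the dashed line is the median of the 35 genes, 0.27. Filled points lie in all 3 shaded blocks, and Pdk4 has the widest interval, -1.63 to 1.12.

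Both the mitochondrial and the peroxisomal genes lay higher on average in HFD. The mean deviation of the 19 mitochondrial genes from their 6-array means was 0.052, 0.132 and 0.258 on HFD1 to HFD3 and -0.261, -0.114 and -0.067 on NCD1 to NCD3. For the 9 peroxisomal genes it was 0.075, 0.106 and 0.216 on HFD1 to HFD3 and -0.209, -0.119 and -0.070 on NCD1 to NCD3. Both scores put every HFD array above every NCD array, and HFD3 was the highest and NCD1 the lowest array in both. HFD minus NCD was 0.295 for the mitochondrial and 0.265 for the peroxisomal score. The mitochondrial minus the peroxisomal score averaged 0.015 ± 0.034 on HFD and -0.015 ± 0.032 on NCD arrays (SD, n = 3 each). That difference of 0.029 between diets was smaller than the SD between arrays, and no test was made of a score over chosen genes. Median changes were 0.28 in mitochondria and 0.26 in peroxisomes. With Eci2 counted as mitochondrial the difference was -0.08, larger in size than the SD between arrays, so both its sign and its size rested on the placement of 1 gene.

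**Figure D3:**
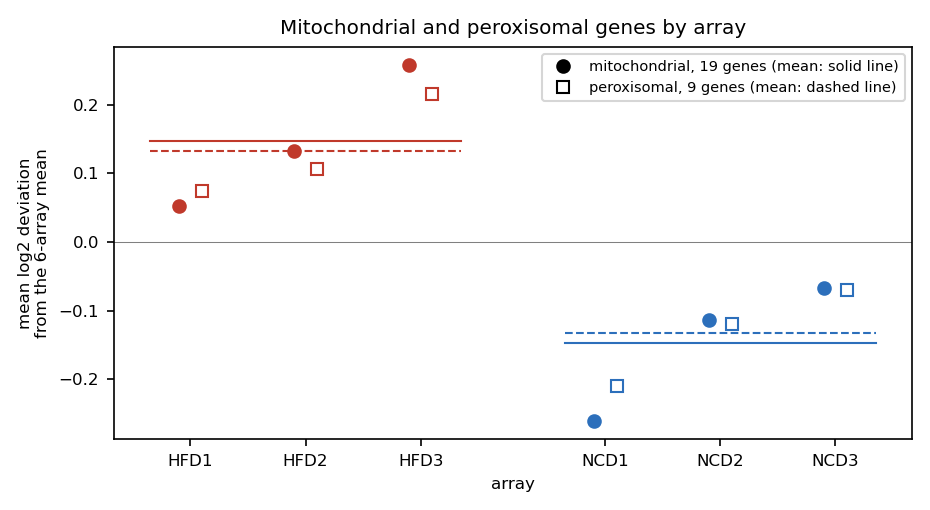
Points are the mean log2 deviation of mitochondrial genes (filled circles) and peroxisomal genes (open squares) from their 6-array means, for each HFD array (red) and NCD array (blue); lines are the diet means. Both sets of points lie above 0 on HFD arrays and below 0 on NCD arrays, and the pair on any array differs by at most 0.052.

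Single arrays held the same place within their diet in most of the 35 genes. HFD3 was the highest of the HFD arrays in 26 genes (74.3%), against 38.2% of genes above background, and HFD1 the lowest in 25 (71.4%), against 41.1%. Of the NCD arrays NCD1 was the lowest in 20 genes (57.1%), against 35.1%, while the highest NCD array was NCD3 in 15 genes and NCD2 in 13. HFD3 was also the array with the neutrophil markers and NCD1 the one with the highest B cell markers; their part in this order was not tested. The SD was larger in NCD than in HFD in 24 of 35 genes, close to the share among all genes (68.6% against 64.0%).

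Acyl-CoA synthetases, which join the fatty acid to coenzyme A, were measured for 3 of 4 genes, and Acsl3 rose. Acsl3, an enzyme of the endoplasmic reticulum and of lipid droplets, had 9.88, 10.18 and 10.08 in HFD against 9.20, 8.86 and 8.90 in NCD. It was 2.09-fold higher (1.07 ± 0.14, adjusted p = 0.0112), and the gap between the diets was wider than the range within either. Its row also names Utp14b, so the 2 genes are not told apart. The Acsl3 call was lost without HFD2, HFD3 or NCD2 (adjusted p at most 0.0631), at changes of 1.00, 1.05 and 1.00. Acsl4, which prefers arachidonic acid, had 12.48, 12.69 and 12.58 in HFD and 12.48, 11.81 and 11.77 in NCD (0.57 ± 0.21, adjusted p = 0.160). NCD1 reached the HFD level, and without it Acsl4 was called at 0.80 (adjusted p = 0.00979). Acsl5 had 13.13, 12.94 and 13.11 in HFD and 12.85, 12.84 and 12.94 in NCD (0.18 ± 0.11, adjusted p = 0.379). A second, dimmer row of Acsl5 was not used and ran the other way, without overlap. It measured 6.84, 6.49 and 6.82 in HFD and 7.15, 6.99 and 7.17 in NCD.

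Of the regulators 0 of 3 were called by limma, 1 of them with an unadjusted p under 0.05. Ppara, the main activator of these genes in liver, was below background on every array, at 4.88 to 5.0 in HFD and 4.90 to 4.97 in NCD, so its change was not measurable here. Ppard had 7.71, 7.68 and 7.64 in HFD and 7.85, 8.02 and 7.86 in NCD, without overlap (-0.23 ± 0.09, adjusted p = 0.180). Its row also names 1810013A23Rik. Pdk4, the kinase that shuts pyruvate out of oxidation when fatty acids are burned, had 11.08, 11.12 and 11.70 in HFD and 10.20, 11.94 and 12.52 in NCD. The NCD arrays lay on both sides of all HFD arrays, and the change was -0.26 ± 0.57 (adjusted p = 0.843).

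NCD1 was the lowest NCD array in 20 of the 35 genes, with Pdk4, Eci2, Cpt2, Acadvl, Hadh and Eci1 among them. The endothelial markers were lower on NCD1 than on NCD2 and NCD3 as well. Their part in these levels was not tested. The mean of the 10 endothelial markers was 12.57, 11.17 and 11.15 on HFD1 to HFD3 and 11.99, 14.02 and 14.43 on NCD1 to NCD3. Pparg, the PPAR of adipocytes and fat macrophages, had 12.80, 12.82 and 12.88 in HFD and 12.31, 13.47 and 13.70 in NCD (-0.32 ± 0.35, adjusted p = 0.647). Without NCD1 Pparg was called lower, at -0.75 (adjusted p = 0.0124). With the mean endothelial level as a covariate, an alternative chosen after the values were seen, the change was 0.86 ± 0.59 for Pdk4 (adjusted p = 0.575), 0.03 ± 0.18 for Eci2 and 0.42 ± 0.31 for Pparg. The same covariate left Hadha at 0.88 ± 0.17 (adjusted p = 0.0650), Hadhb at 0.87 ± 0.20 (0.0933) and Acsl3 at 0.79 ± 0.13 (0.0437). The remaining 4 genes that had risen were between 0.44 and 0.62 with it, and 1 of the 35 genes was called. The summed level of 8 of 10 adipocyte markers, all above background, was 13.50 to 14.17 on HFD and 13.77 to 15.93 on NCD arrays. Most of that sum was Aqp7, at 12.94 to 14.06 on HFD and 13.54 to 15.84 on NCD arrays, with a change of -1.52 that was 0.09 with the endothelial covariate. The other adipocyte markers went both ways, from Lep at 1.68 to Retn at -2.02, and 0 of 8 were called by limma (3 lower at an unadjusted p under 0.05). Of 5 brown adipocyte markers 4 were below background.

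**Figure D4:**
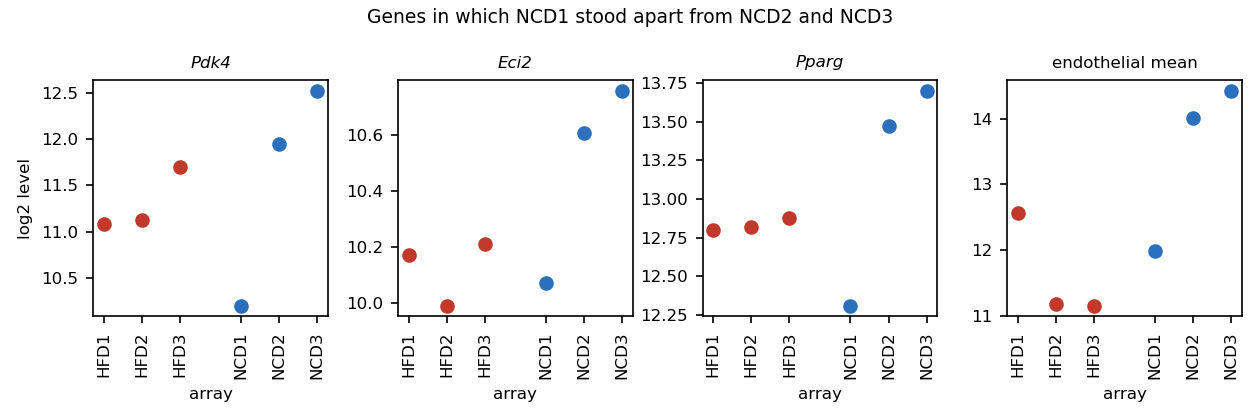
Log2 level on each HFD array (red) and NCD array (blue) of Pdk4, Eci2, Pparg and the mean of 10 endothelial markers; each panel has its own vertical scale, which does not start at 0. In all 4 panels NCD1 lies well below NCD2 and NCD3, and in Pdk4, Eci2 and Pparg the HFD arrays lie between or near these levels.

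In the wider pathway, from lists of 107 genes of which 97 were measured, 6 rose and 2 fell, against 4.9% and 2.83% of all genes. In the list of other genes of mitochondrial oxidation 3 of 27 rose and 0 fell (2 were lower at an unadjusted p under 0.05), with a median of 0.05. These were Acot13, a thioesterase associated with mitochondria (12.22 ± 0.33 in HFD, 11.33 ± 0.06 in NCD, SD, n = 3 each, 1.86-fold higher, adjusted p = 0.0326), Etfrf1, a regulator of the electron transfer flavoprotein (0.56 ± 0.13, adjusted p = 0.0462), and Echdc1, which removes side-product acyl-CoA in the cytosol (0.67 ± 0.12, adjusted p = 0.0244). Of the 3, Echdc1 is thus not itself a mitochondrial enzyme. Acat1, the thiolase of ketone and isoleucine breakdown, was at 11.82 to 11.86 in HFD and 12.17 to 12.35 in NCD but was not called (-0.41 ± 0.10, adjusted p = 0.0659). It was singled out after its values were seen, for the wide separation of the groups.

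Of 21 measured genes of other peroxisomal oxidation and transport, 2 rose, against 4.9% of all genes and 8.61% of those above background, and 0 fell by limma (0 were lower at an unadjusted p under 0.05). A positive change was seen in 18 of the 21, against 16855 of 31722 genes and 8716 of the 16649 above background. The median was 0.27, against 0.01 for all genes. Acox2, Acot3, Acot4, Acot5 and Acot6, all counted as positive, and Slc27a2 (-0.13) were below background on average. Cat, the catalase that removes hydrogen peroxide made by the oxidases, measured 14.90, 14.93 and 14.77 in HFD against 14.45, 14.39 and 14.13 in NCD (1.46-fold higher, adjusted p = 0.0450). Acot4, a peroxisomal thioesterase, was called at 0.38 ± 0.09 (adjusted p = 0.0495) with a mean below background. Of 11 measured peroxins 0 were called by limma, 3 being higher at an unadjusted p under 0.05, with a median of 0.07.

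Among 12 measured partners and coactivators of PPARs 0 rose by limma (1 was higher at an unadjusted p under 0.05) and 1 fell. Rxra, the shared partner receptor, fell to 8.66, 8.67 and 8.50 in HFD, against 9.01, 9.26 and 9.12 in NCD (-0.52 ± 0.11, adjusted p = 0.0406). Among 14 measured PPAR targets outside oxidation 1 rose and 0 fell by limma. The median change was 0.04 and the mean -0.21, with 9 changes positive and 5 negative. At an unadjusted p under 0.05 in that test 4 were lower. These were Fads2 (-1.30 ± 0.42, adjusted p = 0.118), Fabp4 (-1.01 ± 0.36, 0.148), Txnip (-0.88 ± 0.24, 0.0799) and Vnn1 (-0.42 ± 0.14, 0.126, below background), named after their values were seen. With the endothelial covariate the changes were -0.43 for Fads2, -0.06 for Fabp4, -0.28 for Txnip and -0.74 for Vnn1. The gene that rose was Plin2, the coat protein of lipid droplets, which measured 17.35, 17.39 and 17.56 in HFD and 16.52, 16.67 and 16.32 in NCD (1.91-fold higher, adjusted p = 0.0100). Among 12 measured genes of malonyl-CoA and pyruvate dehydrogenase control, Prkaa2, a catalytic subunit of AMP-activated kinase, was called lower, at 5.47 ± 0.04 in HFD and 6.31 ± 0.30 in NCD (SD, n = 3 each, adjusted p = 0.0239). The mean of Prkaa2 over the arrays was below background. Without 1 array the calls of Plin2 were lost for HFD2 and HFD3 (adjusted p at most 0.0549), and those of Rxra and Cat for all arrays but NCD1 (at most 0.165 and 0.187). Prkaa2 and Etfrf1 were called only without NCD1 or NCD3 (at most 0.102 and 0.181), Echdc1 only without HFD1, NCD1 or NCD3 (0.118) and Acot13 only without HFD1 or NCD1 (0.135). Acot4 lost its call without any 1 array, at 0.32 to 0.44 (at most 0.161).

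The number of oxidation genes called depended on single arrays, and so did the number over all genes. Of the 35 genes 2 were called without HFD1, 0 without HFD2, 0 without HFD3, 13 without NCD1, 1 without NCD2 and 4 without NCD3. In the same order, 1072, 408, 447, 4949, 472 and 1888 of all 31722 genes were called. In the fits with 0 calls by limma, 12 of the 35 genes had an unadjusted p under 0.05 without HFD2 and 12 without HFD3. Over all 31722 genes, 5605 and 5421 had an unadjusted p under 0.05 in these fits. Without NCD1 12 genes were higher and Eci2 was lower, and all 7 genes called with 6 arrays were among the 12. Hadha was the gene most often kept, in 4 of the 6 fits. Fits without 1 array have fewer degrees of freedom, so a lost call need not mean a smaller change: the changes of the 7 genes stayed between 0.47 and 1.17 in all of them.

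**Figure D5:**
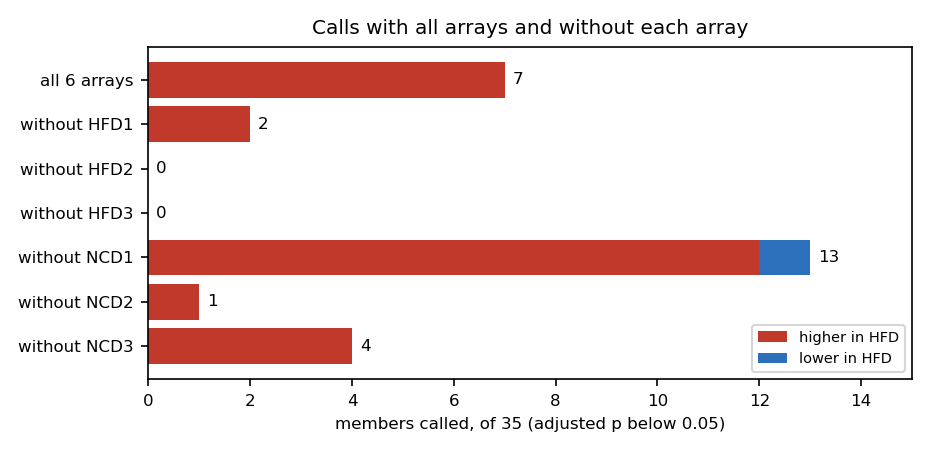
Bars count the genes of 35 that passed an adjusted p of 0.05, with all 6 arrays and without each array in turn (red, higher in HFD; blue, lower in HFD). The count is 7 with all arrays, 13 without NCD1 and 0 without HFD2 or HFD3.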

How the data were processed

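The values analysed are log2 intensities that the authors deposited, with a row for each transcript cluster and a column for each array. Per the submitters' processing notes, RMA, version 1.4.1.46 of Affymetrix Expression Console and version 3.1.0.5 of Transcriptome Analysis Console are listed; the role of each, the options and the genome build are not given in the sources used here. Of 72688 rows, 6732 control rows were left out, leaving 65956 clusters: 30604 with 1 gene symbol, 2146 with several and 33206 with none. Platform symbols are old; 827 were updated by Entrez identifier. The row with the highest mean was kept per symbol, giving 31722 rows. Background is the 95th percentile of 23 antigenomic probe sets, averaged over arrays (6.23 log2).

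Diets were compared with limma 3.58.1 in R 4.3.3 (lmFit, eBayes with trend, two-sided, Benjamini-Hochberg over all rows, threshold 0.05); tables and figures used the R package data.table, version 1.17.8, and pandas 2.3.3, numpy 2.4.6 and matplotlib 3.10.9 in Python 3.11.15. Arrays have no read depth; their number limits precision, and the median standard error was 0.118. The titles call the pools biological replicates. On simulated arrays of the same size (5 runs of 31722 genes, 200 changed) the test recovered 15.3% of changes of 0.5 log2, 79.7% of changes of 1 and 98.2% of changes of 2, with a mean of 9.6 false calls. Only 200 genes were changed there, while 2451 were called in the data, and the adjusted p depends on how many genes change. Real genes are also correlated, so these rates need not hold for the data.

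The members, the compartments and the gene lists were chosen with earlier results of these data known. All 35 measured genes are described; from the wider lists the genes called are named, with Pparg whatever its values; Acat1, Fads2, Fabp4, Txnip and Vnn1 were added after their values were seen. Promoter windows are from RefSeq. The alternatives were rows with 1 symbol, all clusters, median centring, quantile normalization, dropping dim genes, no trend, array weights, the replicate number as a block, unmoderated variances, leaving out each array and, chosen after seeing the data, an endothelial covariate. Replicate numbers did not pair the arrays.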

Additional observations from a re-analysis of the deposited data

How the results depend on the processing

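Of 31722 genes, 2451 were called; the count was 4516 with array weights, 112 with the replicate number as a block, 113 with unmoderated variances, 742 with the endothelial covariate and 408 to 4949 without 1 array. Of the 35 oxidation genes 7 were called, against 11 with dim genes dropped, 12 with array weights, 2 with all clusters tested, 1 with the endothelial covariate, 0 with the replicate number as a block, 0 with unmoderated variances and 0 to 13 without 1 array. In the 2 full-array fits with 0 calls, 13 and 17 genes had an unadjusted p under 0.05 (limma with the block, and the linear model without moderation). Over all 31722 genes the counts were 6213 and 6681. The block left the changes as they were, as it must with 1 array of each diet per number. Same-numbered arrays deviated from their diet means with correlations of -0.458, -0.122 and -0.147, so the numbers are not taken as pairs.

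The mitochondrial minus peroxisomal difference was 0.029, and -0.0818 with Eci2 counted as mitochondrial; it was 0.0109 to 0.0486 without 1 array. Some changes turned sign, among them those of Eci2, Pdk4 and Pparg, which were not near 0. Without 1 array the change ran from -0.056 to 0.215 for Cpt2, -0.208 to 0.05 for Acadvl, -0.0837 to 0.139 for Hadh, -0.0522 to 0.284 for Decr1, -0.261 to 0.0304 for Eci1, -0.0406 to 0.0192 for Etfdh, -0.167 to 0.0688 for Ehhadh, -0.934 to 0.23 for Pdk4 and -0.0029 to 0.0533 for Ppara. With the endothelial covariate it was 0.235 for Acadvl, 0.205 for Eci1, 0.0445 for Etfdh, 0.109 for Ehhadh, 0.0328 for Eci2, 0.855 for Pdk4, -0.00194 for Ppara and 0.423 for Pparg. Hadh was at -0.00585 with array weights, Etfdh at 0.0328 with median centring and Ehhadh at 0.0168 with quantile normalization. The cause of these moves was not tested. The 7 genes that rose kept a positive change in every fit that held them, but they had been picked for a rise in these data. Their change is the same by construction with all clusters, dim genes dropped, no trend, the block or unmoderated variances. Levels near the background of 6.23 (Acot1, Cpt1b, Ehhadh, Pex11a) and below it (Ppara, Acot4, Prkaa2) limit what those rows can show.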
